A study of Mus musculus with 4 samples.

Results

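Voltage-gated sodium channel alpha subunits were followed as a family of 7 genes, Scn1a, Scn2a, Scn3a, Scn8a, Scn9a, Scn10a and Scn11a, in single dorsal root ganglion (DRG) neurons. The members were chosen by symbol among the 31053 genes of the count matrices, and each symbol matched a single row. The rule used no measured value, although the family was picked with earlier results of these data known. The cells were GFP+ cells sorted from DRGs of PirtEGFPf mice, in which the Pirt promoter, active in most DRG sensory neurons, drives a membrane-anchored GFP. All mice, sham mice included, carried this reporter, were 7-8 weeks old and were killed on day 7 after surgery. Each of the 4 libraries pooled 20 DRGs from 5 mice: Male-Sham and Female-Sham after sham surgery, and Male-CCI and Female-CCI after chronic constriction injury (CCI) of both sciatic nerves, used to model neuropathic pain. Each surgery therefore had 1 pooled library per sex, and the male and female libraries served as its 2 replicates, which also differ in sex. The p-values rest on the spread between these 2 pools together with a spread that the tests share between genes. Very small p-values therefore do not come from the 2 pools of a gene alone. Comparisons within the CCI libraries rest on differences inside each library. Littermates of both sexes had received the same surgery, so that litter and surgery cannot be told apart.

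The alpha subunit forms the pore and the voltage sensor of the sodium channel that starts and carries the action potential. Scn1a, Scn2a, Scn3a, Scn8a and Scn9a encode the tetrodotoxin-sensitive channels NaV1.1, NaV1.2, NaV1.3, NaV1.6 and NaV1.7, whereas Scn10a and Scn11a encode the tetrodotoxin-resistant NaV1.8 and NaV1.9 of nociceptors. NaV1.7 amplifies small depolarizations in nociceptors, NaV1.8 carries most of the upstroke of their action potential, and NaV1.9 passes a persistent current near the resting potential. NaV1.6 is the main channel of nodes of Ranvier in myelinated fibers, NaV1.1 is found in myelinated sensory neurons, and NaV1.3 is an embryonic channel that is low in adult DRG. After axotomy, sensory neurons are known to switch on a regeneration program, of which Sprr1a is a widely used marker.

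The residue that separates the tetrodotoxin-sensitive from the tetrodotoxin-resistant members lies in the pore loop of the first domain, and the coding sequence around it is shown for 6 members because this residue defines the pharmacological groups by which the members are named here. Each stretch is 45 bases of coding sequence, 5′ to 3′ in the sense of the gene, from the mouse genome GRCm38 and GENCODE transcripts, with the codon of this residue in capitals and 7 codons on each side.
Scn2a: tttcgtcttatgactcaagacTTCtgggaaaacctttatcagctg
Scn3a: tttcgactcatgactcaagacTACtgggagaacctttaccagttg
Scn8a: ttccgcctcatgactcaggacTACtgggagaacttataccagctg
Scn9a: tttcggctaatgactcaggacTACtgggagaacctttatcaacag
Scn10a: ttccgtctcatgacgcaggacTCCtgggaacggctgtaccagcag
Scn11a: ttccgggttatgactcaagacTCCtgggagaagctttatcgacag
The codon reads phenylalanine in Scn2a (residue 385, chr2:65688436-65688438, plus strand). It reads tyrosine in Scn3a (residue 384, chr2:65521813-65521815, minus strand), in Scn8a (residue 371, chr15:100971638-100971640, plus strand) and in Scn9a (residue 362, chr2:66549001-66549003, minus strand). It reads serine in Scn10a (residue 356, chr9:119666387-119666389, minus strand) and in Scn11a (residue 358, chr9:119805680-119805682, minus strand). In these 6 transcripts the codon lies in exon 9. Scn2a, Scn3a and Scn9a thus share chromosome 2, and Scn10a and Scn11a share chromosome 9. Scn3a and Scn9a are overlapped on the opposite strand by the annotated genes Gm13595 and Gm13629, and because read assignment by strand was not stated for these files, UMIs in the overlap could not be divided between the partners.

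After filtering, 15715 of 23691 deposited cells remained, of which 15134 were neurons (3281 and 5398 in the male and female sham libraries, and 2817 and 3638 in the male and female CCI libraries). The deposited libraries held 195684124 to 237069156 UMIs, and library pairs shared 0 to 6 cell barcodes. Neuron classes were rebuilt from fixed markers with the 7 members kept out of the clustering genes, and they are called NP (non-peptidergic), PEP (peptidergic), NF (neurofilament-rich) and cLTMR (C-fiber low-threshold mechanoreceptor) after the subtypes of the study, with "-like" added because the names were rebuilt here. A class of CCI-induced clusters (CCI-ind-like), satellite glial cells (SGC-like), 23 immune-like cells and 1 unnamed neuron cluster completed the set. Levels are UMIs per 1000000 summed UMIs of a class in a library (CPM), a 3′ tag measure that is not scaled to gene length, so that levels were compared between classes and libraries and not between members. Free RNA gives UMIs in cells that lack a gene. In SGC-like cells of the sham libraries, the members were at 13.4 and 7.27 CPM (Scn8a), 8.95 and 10.2 CPM (Scn9a), 10.7 and 8.72 CPM (Scn10a), 5.37 and 2.91 CPM (Scn11a) and at most 1.79 CPM (Scn1a, Scn2a and Scn3a), and class levels at or below these are called background here. SGC-like cells were far shallower than neurons (medians of 5125 and 4188 against 45172 and 32490 UMIs in the sham libraries). PEP3/4-like neurons of sham held only 2.15 to 2.95 CPM of Scn8a, so that background in neurons can be lower than in SGC-like cells.

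In sham neurons the tetrodotoxin-resistant members were highest in the non-peptidergic NP2-like and NP3-like classes and near background in PEP5-like and NF1-like neurons. Scn10a stood at 400.2 and 391 CPM in NP2-like neurons of Male-Sham and Female-Sham, and at 332 and 324 CPM in NP3-like neurons. PEP1-like neurons held 325 and 322 CPM of Scn10a and did not differ from NP3-like neurons beyond the spread of the 2 libraries. The levels then fell through NF2-like (258 and 281 CPM), NP1-like (227 and 189 CPM), PEP3/4-like (201 and 187 CPM), cLTMR-like (115 and 114 CPM) and PEP2-like neurons (98.01 and 118 CPM). The libraries of NP1-like and PEP3/4-like neurons overlapped, as did those of cLTMR-like and PEP2-like neurons. PEP5-like neurons (4.13 and 6.17 CPM) and NF1-like neurons (3.11 and 5.34 CPM) were below the SGC-like cells.

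Scn11a followed a similar order with different steps. It was at 373 and 379.7 CPM in NP2-like and 348 and 367 CPM in NP3-like neurons, the highest pair of classes. PEP1-like neurons, among the highest for Scn10a, held only 92.5 and 96.97 CPM of Scn11a, the lowest level of the 8 classes above background. PEP3/4-like (226 and 211 CPM) and NP1-like neurons (216 and 168 CPM) overlapped, and NF2-like neurons stood at 120.2 and 138 CPM. PEP2-like (103 and 112 CPM) and cLTMR-like neurons (103 and 104 CPM) also overlapped. NF1-like and PEP5-like neurons held 3.26 and 7.47 and 4.93 and 5.23 CPM.

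Scn9a was present in every class with the narrowest range of the 7 members. cLTMR-like neurons were highest at 536 and 450 CPM and NF1-like neurons lowest at 136 and 146 CPM, a ratio of the sham means of 3.49. The other 8 classes lay between sham means of 219.9 CPM (PEP3/4-like) and 331 CPM (NF2-like), and the libraries of 5 of the 9 pairs of neighbors in the order overlapped. NF2-like neurons overlapped NP2-like neurons but lay above PEP2-like, NP1-like and NP3-like neurons in both libraries, and those 3 classes and NP2-like neurons could not be ordered beyond their spread.

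Scn8a and Scn1a were both highest in NF1-like neurons. Scn8a stood at 265 and 246 CPM in NF1-like neurons and 189 and 156 CPM in NF2-like neurons. PEP5-like (63.6 and 50.2 CPM), cLTMR-like (43.3 and 38.3 CPM) and PEP1-like neurons (20.8 and 22.3 CPM) followed, and the remaining classes were at or below 9.81 CPM on average, near the level of SGC-like cells. Scn1a stood at 157 and 137 CPM in NF1-like neurons, but PEP5-like neurons (87.7 and 80.4 CPM), whose fixed markers include Trpm8, came before cLTMR-like (40.7 and 36.7 CPM) and NF2-like neurons (36.4 and 22.5 CPM). PEP2-like neurons held 8.65 and 5.99 CPM, and the other 5 classes had sham means under 1 CPM.

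Scn2a and Scn3a were low overall and followed another pattern. Scn2a was highest in PEP5-like neurons (31.8 and 30.7 CPM) and lowest in NF2-like neurons (7.79 and 6.16 CPM), a ratio of the sham means of 4.48. Scn3a was highest in PEP2-like neurons (40.1 and 32.2 CPM), then in PEP5-like (27.2 and 25.8 CPM), cLTMR-like (18.2 and 17.4 CPM) and PEP3/4-like neurons (12.8 and 10.5 CPM). No Scn3a UMI was counted in NP1-like neurons of either sham library, which allows levels of up to 0.711 CPM in Male-Sham and 0.825 CPM in Female-Sham at 3 UMIs. The unnamed cluster, led by Rxfp1 and Calb1, exceeded every named class in both members, with 47.8 and 47.4 CPM of Scn3a and 42.2 and 46.9 CPM of Scn2a over 91 and 102 cells. Single clusters inside the named classes reached similar or higher Scn3a, with 63.2 and 58.6 CPM in the PEP2-like cluster led by Dcn and Tmc3 and 44.6 and 56.5 CPM in the PEP5-like cluster led by Pnoc and Penk.

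**Figure D1:**
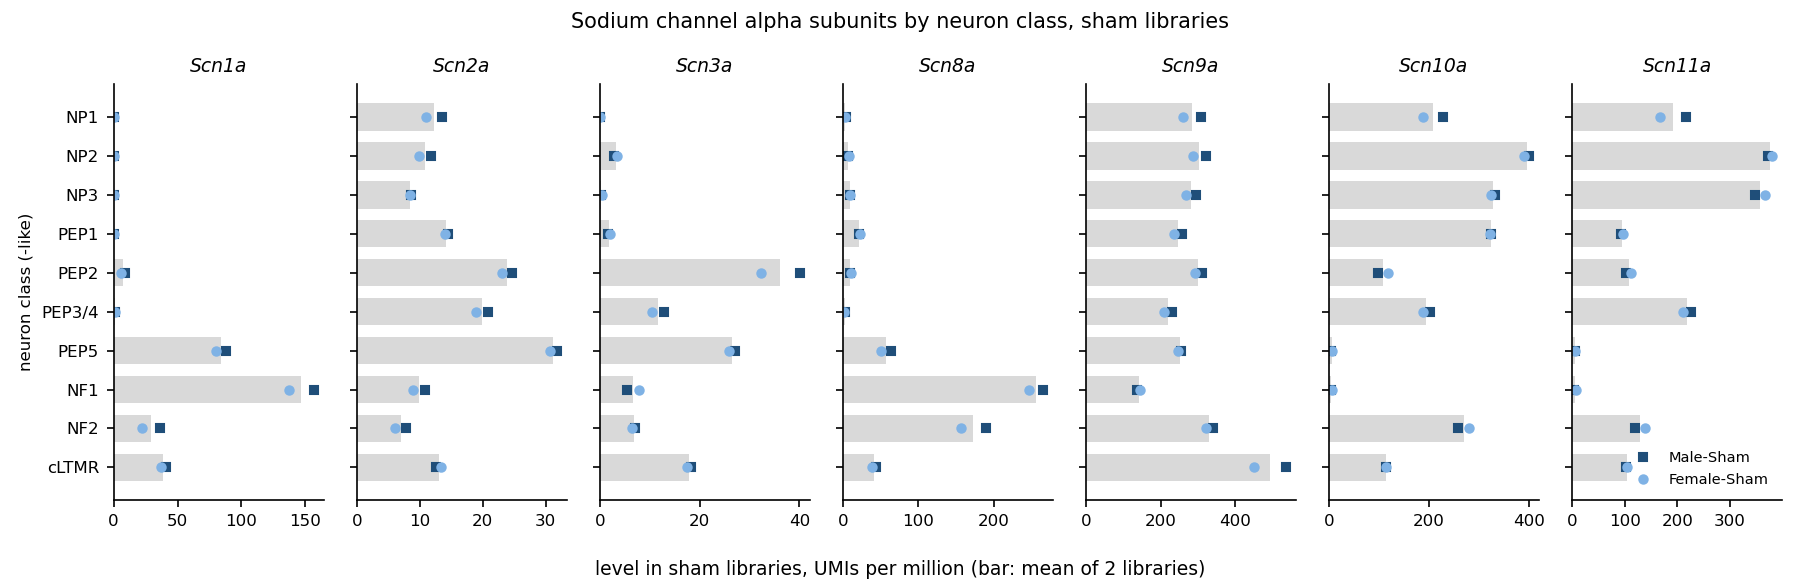
Level of each alpha subunit (columns, CPM on linear axes that start at 0 and differ between members) in the 10 named neuron classes of the sham libraries, with bars at the mean of 2 libraries and points for Male-Sham and Female-Sham. Scn10a and Scn11a fill the NP and most PEP classes and are near 0 in PEP5 and NF1, where Scn1a reaches 84.1 and 147 CPM.

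Across the sham means of the 10 classes, Scn10a and Scn11a were each other's closest gene among 8113 genes compared (Pearson r = 0.962 of log2 levels). Kcng2 (r = 0.959) and Vps4b (r = 0.957) came next for Scn10a, and Vps4b (r = 0.954) and Dynll1 (r = 0.952) for Scn11a. Scn1a was most like Syt3 (r = 0.979), Mcam and Atp2b2. Scn8a was most like Snrpb2 (r = 0.97), Arhgap44 and Nat8l. Scn2a was most like Fubp1 (r = 0.97), Mbd3 and Scaf11, and Scn3a was most like Hspa5 (r = 0.952), Ap4s1 and Actr8. For Scn9a the likeness dropped from Ptrh2 (r = 0.949) to Palm2 (r = 0.877) and Ift46 (r = 0.868). These correlations describe 10 class means that share the same 2 libraries.

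The first comparison asked how the family stood in all neurons after CCI. Of the 7 members, 3 were lower and none was higher (edgeR quasi-likelihood F-test, p adjusted by Benjamini-Hochberg over all genes tested, called at adjusted p below 0.05 and an absolute log2 change above 0.5), against 27.8% of 17233 genes called in either direction and 12.7% called lower. The median change of the 7 members was -0.32 on the log2 scale, and that of all genes -0.01. Scn11a stood at 181, 170.2, 68.9 and 77.5 CPM in the male and female sham and the male and female CCI libraries, an order kept below (log2 change -1.20 ± 0.07, SE, adjusted p = 2.93e-05), 2.31-fold lower after CCI. Scn10a stood at 225, 212, 98.8 and 109 CPM (log2 change -1.02 ± 0.06, SE, adjusted p = 4.26e-05) and Scn1a at 24.5, 19.1, 12.9 and 10.7 CPM (log2 change -0.83 ± 0.15, SE, adjusted p = 0.00538). In these 3 members both CCI libraries were below both sham libraries.

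Scn9a was at 299.7, 272, 228 and 227 CPM, lower in both CCI libraries (log2 change -0.27 ± 0.06, SE, adjusted p = 0.00676), but its change stayed under the 0.5 limit. The same held in the opposite direction for Scn3a, at 10.1, 10.3, 11.1 and 12.2 CPM (log2 change 0.24 ± 0.07, SE, adjusted p = 0.0202). Scn8a (43.4, 33.6, 31.6 and 27.9 CPM, log2 change -0.32 ± 0.14, SE, adjusted p = 0.11) and Scn2a (15.6, 15.2, 16.4 and 15.3 CPM, log2 change 0.10 ± 0.06, SE, adjusted p = 0.217) did not pass. Summed over the 7 members, alpha subunit levels were 799, 733, 468 and 479.8 CPM, and Scn10a and Scn11a together made up 50.8, 52.2, 35.9 and 38.95% of these UMIs. The summed level of the SGC markers in neurons was 1340 and 1658 CPM in the sham and 999.9 and 1179 CPM in the CCI libraries, against 106300 to 132700 CPM in SGC-like cells. The share of each class also differed between the surgeries, because CCI-ind-like neurons came mostly from CCI libraries, so the next comparisons split the neurons.

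Neurons were split by Sprr1a, the injury marker that the study used, with a normalized level (natural log scale) above 1 called Sprr1a+. Of the neurons, 1.28% (95% Wilson interval 0.948 to 1.73%) were Sprr1a+ in Male-Sham, 2.67% (2.27 to 3.13%) in Female-Sham, 52.1% (50.2 to 53.9%) in Male-CCI and 49.2% (47.6 to 50.8%) in Female-CCI. These intervals cover counting error only. SGC-like cells of the CCI libraries were Sprr1a+ in 14.4% and 14.7%, with median depths of 5160 and 4416 UMIs against 56457 and 43517 UMIs in neurons. Sprr1a itself set the split and its levels are no result. Most Sprr1a+ neurons of CCI, 1246 of 1467 and 1551 of 1790, were CCI-ind-like, so that in comparisons over all neurons the class make-up moved with the split.

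Sprr1a+ neurons of CCI held little of the tetrodotoxin-resistant members. Scn10a was at 11.7 and 13.6 CPM in Sprr1a+ neurons of Male-CCI and Female-CCI, against 228 and 219 CPM in Sprr1a- neurons of Male-Sham and Female-Sham (log2 change -3.99 ± 0.08, SE, adjusted p = 1.57e-08), a 15.9-fold lower level. Scn11a was at 6.75 and 8.37 CPM against 183 and 175 CPM (log2 change -4.42 ± 0.10, SE, adjusted p = 5.31e-08), 21.4-fold lower. The libraries of the 2 groups were far apart in both genes. SGC-like cells of the CCI libraries held 2.87 and 1.80 CPM of Scn10a and 2.87 and 5.39 CPM of Scn11a. Each of these values rested on 3 UMIs or fewer, as 3 UMIs are 4.30 and 5.39 CPM in these cells. The remaining Scn10a was above that level and the remaining Scn11a nearer to it, but the backgrounds of the 2 genes could not be told apart.

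Among the tetrodotoxin-sensitive members, the changes ran from a large loss to none called. Scn1a was at 3.06 and 2.18 CPM in Sprr1a+ neurons of CCI against 24.9 and 19.7 CPM in Sprr1a- neurons of sham (log2 change -2.94 ± 0.19, SE, adjusted p = 3.69e-05). Scn8a was at 19.7 and 16.1 against 43.9 and 34.4 CPM (log2 change -0.98 ± 0.15, SE, adjusted p = 0.00326). Scn9a was at 155 and 145 against 302 and 275 CPM (log2 change -0.80 ± 0.07, SE, adjusted p = 1.64e-05) and had the smallest of the called changes. Scn2a (15.7 and 14.4 against 15.7 and 15.3 CPM, log2 change 0.11 ± 0.07, SE, adjusted p = 0.213) and Scn3a (9.68 and 10.3 against 10.2 and 10.5 CPM, log2 change 0.09 ± 0.07, SE, adjusted p = 0.261) were not called. In all, 5 of the 7 members were lower and none higher, with 49.8% of all genes called and 26.4% called lower in this comparison. The median change was -0.98 over the members and -0.01 over all genes.

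Within the CCI libraries, with library as a block, the same 5 members were lower in Sprr1a+ than in Sprr1a- neurons, with 45.5% of all genes called and 24.7% called lower. This comparison shares its Sprr1a+ neurons with the previous one. The log2 changes were -4.09 ± 0.06 (adjusted p = 1.08e-09) for Scn11a, -3.84 ± 0.05 (adjusted p = 5.14e-11) for Scn10a and -2.90 ± 0.07 (adjusted p = 3.18e-10) for Scn1a. For Scn8a and Scn9a they were -1.08 ± 0.05 (adjusted p = 1.06e-08) and -0.89 ± 0.03 (adjusted p = 3.22e-09). The Scn8a change moved to -0.33 and was no longer called when cells were kept only at up to 5% mitochondrial UMIs, and to 0.0236 (adjusted p = 0.711) when any Sprr1a UMI made a neuron Sprr1a+. With that limit Scn8a against sham was -0.31 (adjusted p = 0.0997) and Scn9a stood at -0.34 against sham and -0.43 within the CCI libraries, under the 0.5 limit, and 3 members were called against sham in place of 5. Scn3a was lower by less than the limit (-0.25 ± 0.06, adjusted p = 0.00376), and Scn2a did not pass (0.02 ± 0.05, adjusted p = 0.708).

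Log2 changes were fitted after TMM scaling, which assumes that most genes keep their share of the UMIs, and can differ from the ratio of the CPM values printed beside them. With scaling to total UMIs alone, an alternative chosen after the data were seen, the median of all genes lay lower by 0.15 in the comparison of Sprr1a+ neurons with sham and by 0.17 within the CCI libraries. It lay lower by 0.32 for NF1-like and 0.25 for NF2-like neurons in the comparisons of these classes with sham. Under that scaling the 5 lower members of both comparisons were called as before, Scn2a and Scn3a stood at -0.04 and -0.06 against sham, and Scn2a was lower within the CCI libraries (-0.15, adjusted p = 0.0283 by edgeR). Of the calls over all genes, 45.8% with TMM and 34.0% with total UMIs within the CCI libraries were higher, 47.8% with TMM and 26.4% with total UMIs in the NF1-like class and 48.3% with TMM and 29.4% with total UMIs in the NF2-like class against sham.

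**Figure D2:**
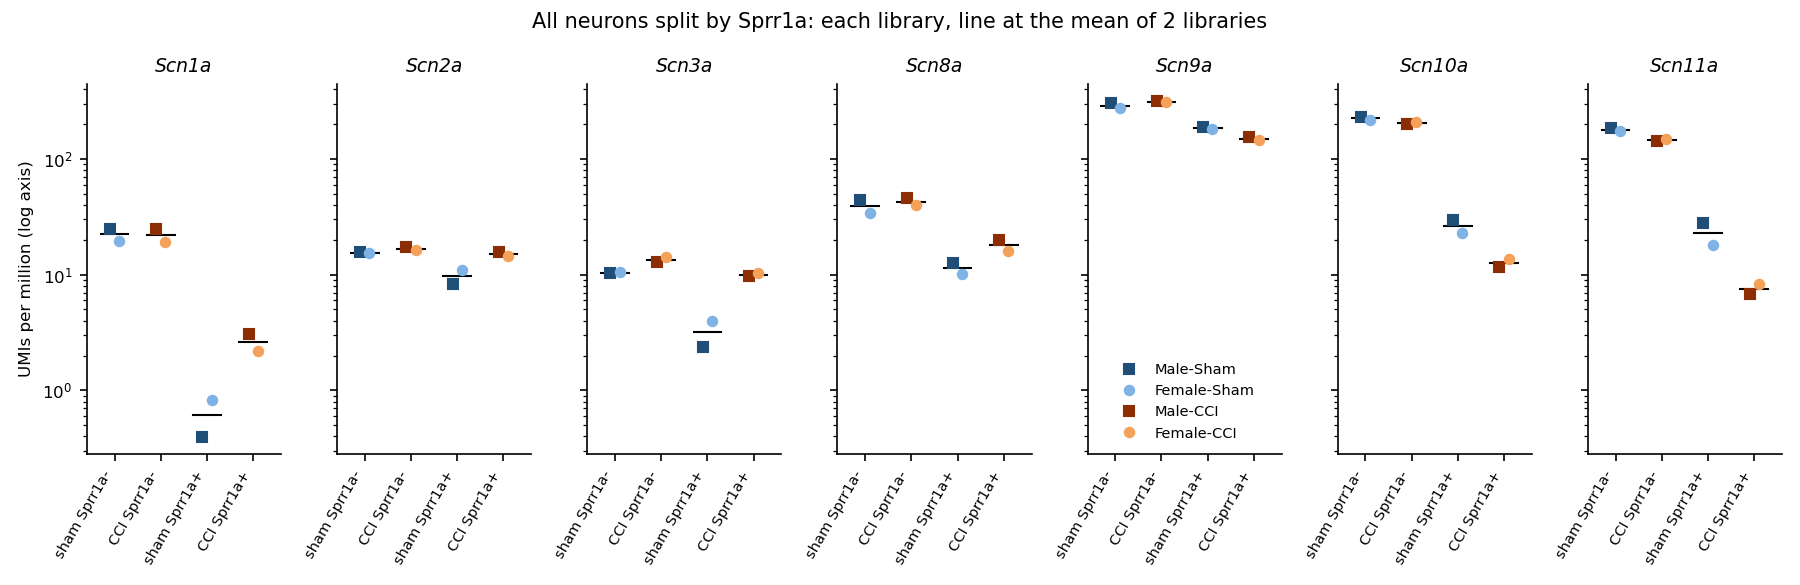
Level of each alpha subunit (CPM, log axis shared by the panels) in Sprr1a- and Sprr1a+ neurons of each library, with lines at the mean of 2 libraries. Scn1a, Scn10a and Scn11a drop in Sprr1a+ neurons of CCI (Scn10a to 11.7 and 13.6 CPM), whereas Scn2a stays between 14.4 and 17.2 CPM in all CCI points.

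The few Sprr1a+ neurons of sham libraries (42 and 144 cells), which entered no test, were low in the same members. They held 29.7 and 22.9 CPM of Scn10a, 27.8 and 17.95 CPM of Scn11a and 0.397 and 0.831 CPM of Scn1a. Their Scn10a and Scn11a levels were above those of Sprr1a+ neurons of CCI in both libraries, and their Scn3a (2.38 and 3.99 CPM) and Scn2a (8.33 and 10.97 CPM) were below.

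Grading the CCI neurons by their Sprr1a level showed where the drop began. Neurons with no Sprr1a UMI held 184 and 199 CPM of Scn10a, and those with a level up to 1 held 208 and 209.9 CPM. Scn10a then fell to 35.3 and 33.6 CPM at a level of 1 to 2, 18.4 and 20.99 CPM at 2 to 3 and 8.67 and 8.40 CPM above 3. Scn11a took the same course, from 139.5 and 150.3 CPM with no Sprr1a UMI to 4.94 and 5.52 CPM above 3. Scn1a dropped once, from 25.2 and 19.3 CPM at up to 1 to 3.07 and 2.66 CPM at 1 to 2, with no further fall in both libraries. Scn9a declined from 327 and 317 to 143 and 128 CPM. Scn8a was highest at a level of up to 1 (49.9 and 43.6 CPM), above neurons with no Sprr1a UMI (33.3 and 31.1 CPM), and lowest above 3 (17.7 and 15.5 CPM). Scn2a and Scn3a were highest without Sprr1a (20.6 and 20.3 and 18.5 and 18.2 CPM) and stood at 15.8 and 14.6 and 9.56 and 10.5 CPM above 3. These grades are a description over neurons of mixed classes, and their classes and depths differ.

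**Figure D3:**
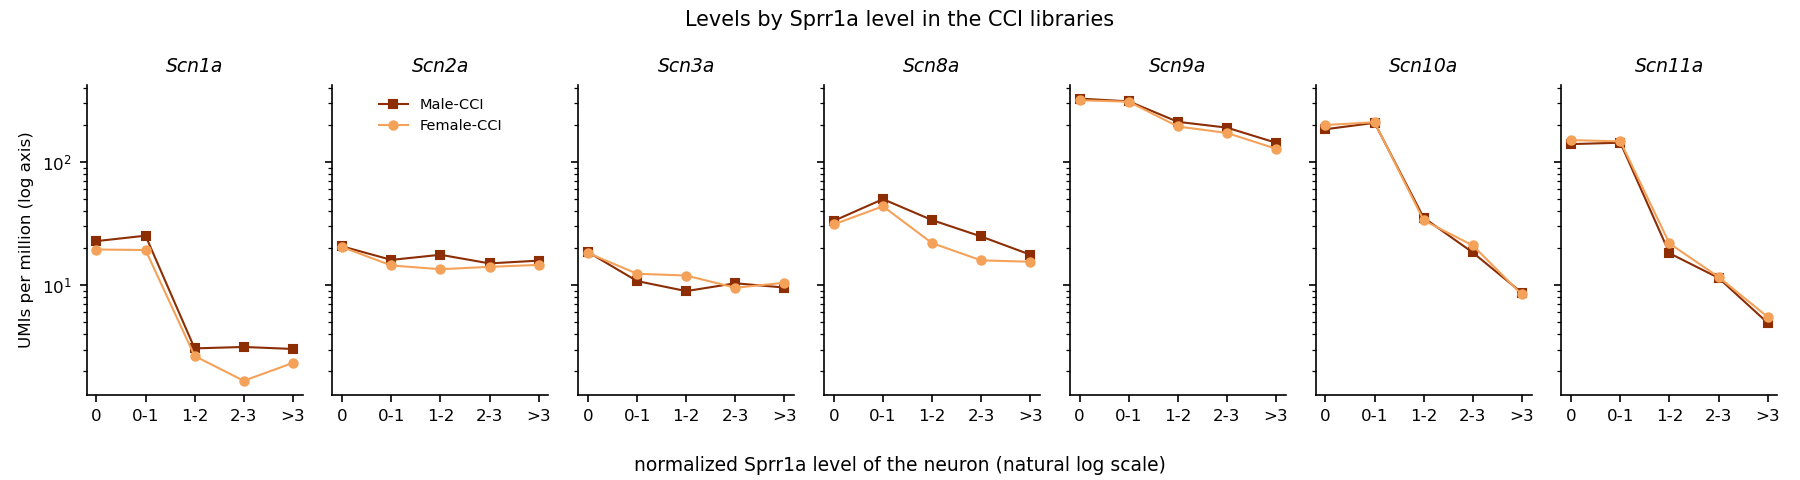
Level of each alpha subunit (CPM, log axis) in Male-CCI and Female-CCI neurons grouped by their normalized Sprr1a level (natural log scale). Scn10a, Scn11a and Scn1a fall between the groups at 0 to 1 and 1 to 2, Scn10a from 208 and 209.9 to 35.3 and 33.6 CPM, and Scn2a stays above 13 CPM throughout.

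The make-up of the family changed accordingly. In Sprr1a- neurons of the CCI libraries the 7 members summed to 758 and 755 CPM, of which Scn10a and Scn11a were 45.4 and 46.98% and Scn3a 1.68 and 1.87%. In Sprr1a+ neurons of the same libraries they summed to 222 and 209.6 CPM, of which Scn10a and Scn11a were 8.32 and 10.5% and Scn3a 4.37 and 4.92%. Cells were then thinned to 10000 UMIs each, which left out between 0 and 297 shallower neurons per library and group. Sprr1a- neurons had a UMI of 2.88, 2.82, 2.82 and 2.78 members on average in the 4 libraries, and Sprr1a+ neurons of 1.45, 1.25, 1.30 and 1.30 members. Without thinning the averages were 4.11, 3.84, 4.27 and 4.03 and 3.14, 2.69, 3.14 and 2.76. Among thinned Sprr1a+ neurons of CCI, 16.4% (95% Wilson interval 14.5 to 18.4%) and 16.1% (14.4 to 17.9%) had no UMI of any member, against 0.848% (0.474 to 1.51%) and 1.04% (0.659 to 1.64%) of Sprr1a- neurons. Sprr1a+ neurons were the deeper cells, with medians of 60287 and 45672 UMIs against 51203 and 40010.

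CCI-ind-like neurons, which held most Sprr1a+ cells, were low in Scn10a and Scn11a in each of their 5 clusters but differed in other members. These values describe clusters of the same cells and were not tested. Scn10a ranged from 2.26 to 14.6 CPM over the 5 clusters and 2 CCI libraries, and Scn11a from 0.85 to 11.2 CPM. Scn3a was at 5.88 and 5.95 CPM in the cluster led by Anxa1 and Krt16 and 3.97 and 4.90 CPM in that led by En1 and S100a8. It reached 14.4 and 18.4 CPM in the cluster led by Ly6a and Ly6c1, 19.1 and 18.5 CPM in that led by Crh and Tmem144, and 31.02 and 29.2 CPM in that led by Ankrd1 and Arg2. The Ankrd1-led cluster also held most Scn1a of the 5, 7.08 and 10.1 CPM, and most Scn2a, 27.9 and 25.5 CPM. Scn9a was highest in the Crh-led cluster (211 and 198 CPM), and Scn8a was lowest in the Ly6a-led cluster (6.41 and 5.14 CPM).

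Comparisons within a class were made in 4 named classes, in which the study also compared injured neurons. Their Sprr1a+ cells were NP1-like (98 and 108 cells in Male-CCI and Female-CCI), NF1-like (51 and 29), NF2-like (57 and 62) and PEP5-like (11 and 12). Over these classes, Sprr1a+ neurons of CCI differed from Sprr1a- neurons of sham in 16 calls of members, and from Sprr1a- neurons of the same CCI libraries in 12. These comparisons share cells. Against sham, 5 members were tested in NP1-like neurons and 7 in each other class. Within the CCI libraries, 5 were tested in NP1-like and NF1-like neurons and 7 in NF2-like and PEP5-like neurons. The share of all genes called against sham was 41.1% (NP1-like), 44.7% (NF1-like), 40.4% (NF2-like) and 16.5% (PEP5-like). Within the CCI libraries it was 22.7, 42.9, 31.9 and 10.1% in the same order. Whether members were called more often than other genes was not tested.

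In NP1-like neurons, whose markers Nppb, Sst and Il31ra are known from itch-sensing C fibers, the nociceptor members were lower. Scn10a was at 25.1 and 25.2 CPM in Sprr1a+ neurons of CCI against 241 and 229 CPM in Sprr1a- neurons of sham (log2 change -3.17 ± 0.12, SE, adjusted p = 1.73e-25), 8.97-fold lower. Scn11a was at 19.9 and 22.7 against 228 and 201 CPM (log2 change -3.28 ± 0.12, SE, adjusted p = 2.61e-25), and Scn9a at 156 and 154 against 322 and 283 CPM (log2 change -0.91 ± 0.10, SE, adjusted p = 1.78e-10). Scn2a (0.35 ± 0.21, adjusted p = 0.157) and Scn8a (0.85 ± 0.37, adjusted p = 0.0503) were not called, and Scn1a and Scn3a were too low to test. Thus 3 of the 5 members tested were lower, with 41.1% of all genes called in this class. Within the CCI libraries the same 3 were lower, with log2 changes of -1.01 (Scn9a), -2.88 (Scn10a) and -2.87 (Scn11a) and 22.7% of genes called. The class rested on different clusters in the groups. The cluster led by Cd207 held 100 and 116 CCI cells and 6 and 25 sham cells, and the cluster led by Sst and Nppb held 29 and 27 CCI cells and 82 and 63 sham cells.

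In NF2-like neurons, a myelinated class that also carries Scn10a and Scn11a, all 7 members were called. Scn10a was at 23.2 and 19.4 against 258 and 281 CPM (log2 change -3.40 ± 0.14, SE, adjusted p = 8.50e-08) and Scn11a at 13.4 and 20.2 against 120.2 and 138 CPM (log2 change -2.73 ± 0.17, SE, adjusted p = 9.37e-07). Scn1a (-2.30 ± 0.32, adjusted p = 0.000374), Scn8a (-1.59 ± 0.13, adjusted p = 6.01e-06) and Scn9a (-1.14 ± 0.12, adjusted p = 4.37e-05) were also lower. Scn8a, the nodal channel, was at 49.2 and 47.3 CPM against 189 and 156 CPM, and no library of one group reached the other. Scn2a (11.4 and 10.8 against 7.79 and 6.16 CPM, log2 change 0.91 ± 0.24, SE, adjusted p = 0.0095) and Scn3a (9.05 and 13.98 against 7.11 and 6.54 CPM, log2 change 0.96 ± 0.26, SE, adjusted p = 0.011) were higher. The Scn2a call was lost without Female-Sham (0.76, adjusted p = 0.0891 by edgeR), and DESeq2 called neither Scn2a nor Scn3a. Of all genes, 40.4% were called. Inside the CCI libraries, 6 members were called (Scn3a was not, 0.03 ± 0.22, adjusted p = 0.942), with 31.9% of genes called, and the Scn2a call (0.87 ± 0.30, adjusted p = 0.0339) was lost with scaling to total UMIs (0.68, adjusted p = 0.12). Over all neurons of Male-CCI and Female-CCI, the markers that named this class summed to 345 and 331 CPM in Sprr1a+ neurons. In Sprr1a- neurons of these libraries they summed to 175 and 152 CPM. The class held 78 and 92 sham cells and 99 and 129 CCI cells. Whether injured neurons of other classes were counted as NF2-like was not tested.

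In NF1-like neurons, a class led by Pvalb and Slc17a7, the most firmly called changes were in Scn1a and Scn8a, which had their highest sham level in this class. Scn8a was at 82.7 and 87.5 CPM in Sprr1a+ neurons of CCI against 265 and 246 CPM in Sprr1a- neurons of sham (log2 change -1.28 ± 0.10, SE, adjusted p = 6.20e-07). Scn1a was at 31.9 and 42.8 against 157 and 137 CPM (log2 change -1.73 ± 0.14, SE, adjusted p = 7.52e-07). Sprr1a- NF1-like neurons of CCI held 277 and 284 CPM of Scn8a and 168 and 161 CPM of Scn1a, above both sham libraries in each member. Scn2a was called higher (0.69 ± 0.22, adjusted p = 0.0188) and Scn11a lower (-1.97 ± 0.73, adjusted p = 0.0446), but Scn11a was at background in this class. The Scn2a change was 0.37 and not called with scaling to total UMIs. Leaving out 1 library ended both calls. For Scn2a it was Female-Sham (0.56, adjusted p = 0.125) or Male-CCI (0.82, adjusted p = 0.0846). For Scn11a it was Female-Sham (-1.27, adjusted p = 0.206), Male-CCI (-1.13, adjusted p = 0.532) or Female-CCI (-2.49, adjusted p = 0.108). Scn9a (-0.18 ± 0.10, adjusted p = 0.132), Scn3a (0.68 ± 0.29, adjusted p = 0.0662) and Scn10a (-0.68 ± 0.50, adjusted p = 0.275) were not called, and Scn9a turned to a positive change in clusterings that held fewer NF1-like neurons (0.50 at resolution 1.2, with 76 and 85 sham cells in place of 146 and 165). In this class 4 of 7 members were called, with 44.7% of all genes. With any Sprr1a UMI as the limit, Scn1a (-0.27, adjusted p = 0.0504) and Scn8a (-0.23, adjusted p = 0.0575) were not called against sham, nor were they within the CCI libraries (-0.33 and -0.42). Within the CCI libraries Scn1a (-1.93 ± 0.13, adjusted p = 1.04e-46) and Scn8a (-1.44 ± 0.11, adjusted p = 1.56e-36) were called, with 42.9% of genes, and Scn9a (-0.29 ± 0.11, adjusted p = 0.02) was called lower only with scaling to total UMIs (-0.58, adjusted p = 7.01e-07).

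PEP5-like Sprr1a+ neurons were only 11 and 12 cells, and the 2 calls rested on few UMIs. The number depended on the clustering, with 146 and 148 cells when injury genes were left out of it, 177 and 192 with doublets kept and 151 and 164 with the Calb1-led cluster included, and Scn1a and Scn8a were called lower against sham in each of these 3 settings. Scn1a had 2 and 5 UMIs there (10.7 and 14.8 CPM) against 87.3 and 80.2 CPM in Sprr1a- neurons of sham (log2 change -2.59 ± 0.40, SE, adjusted p = 4.32e-06). Summed over libraries, the ratio was 0.16 (95% exact interval 0.0644 to 0.331) by counting error only. With any Sprr1a UMI as the limit the changes against sham were 0.00516 (adjusted p = 0.985) for Scn1a and -0.0373 (adjusted p = 0.894) for Scn8a, and Scn1a stood at 0.20 (adjusted p = 0.42) within the CCI libraries. Scn8a was at 26.8 and 17.8 against 63.2 and 49.95 CPM (log2 change -1.36 ± 0.40, SE, adjusted p = 0.0125), a summed ratio of 0.377 (95% exact interval 0.188 to 0.677) over 11 UMIs. This call was lost without Male-Sham (-1.15, adjusted p = 0.167), Male-CCI (-1.598, adjusted p = 0.0527) or Female-CCI (-1.09, adjusted p = 0.293). Scn9a, the best-counted member with 107 UMIs, was at 316 and 142 against 254 and 247 CPM (-0.19 ± 0.22, adjusted p = 0.624), with Male-CCI above and Female-CCI below both sham libraries, and was not called. Scn2a, Scn3a, Scn10a and Scn11a were not called either, and Scn11a had 0 UMIs in both sums, which allows up to 16.1 and 8.88 CPM, above its sham level. Of all genes, 16.5% were called. Within the CCI libraries only Scn1a was called (-2.56 ± 0.45, adjusted p = 9.76e-07), with 10.1% of genes. The summed SGC markers of PEP5-like neurons were 3654 to 4157 CPM, above the 999.9 to 1658 CPM of all neurons, and their part in these values was not tested.

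**Figure D4:**
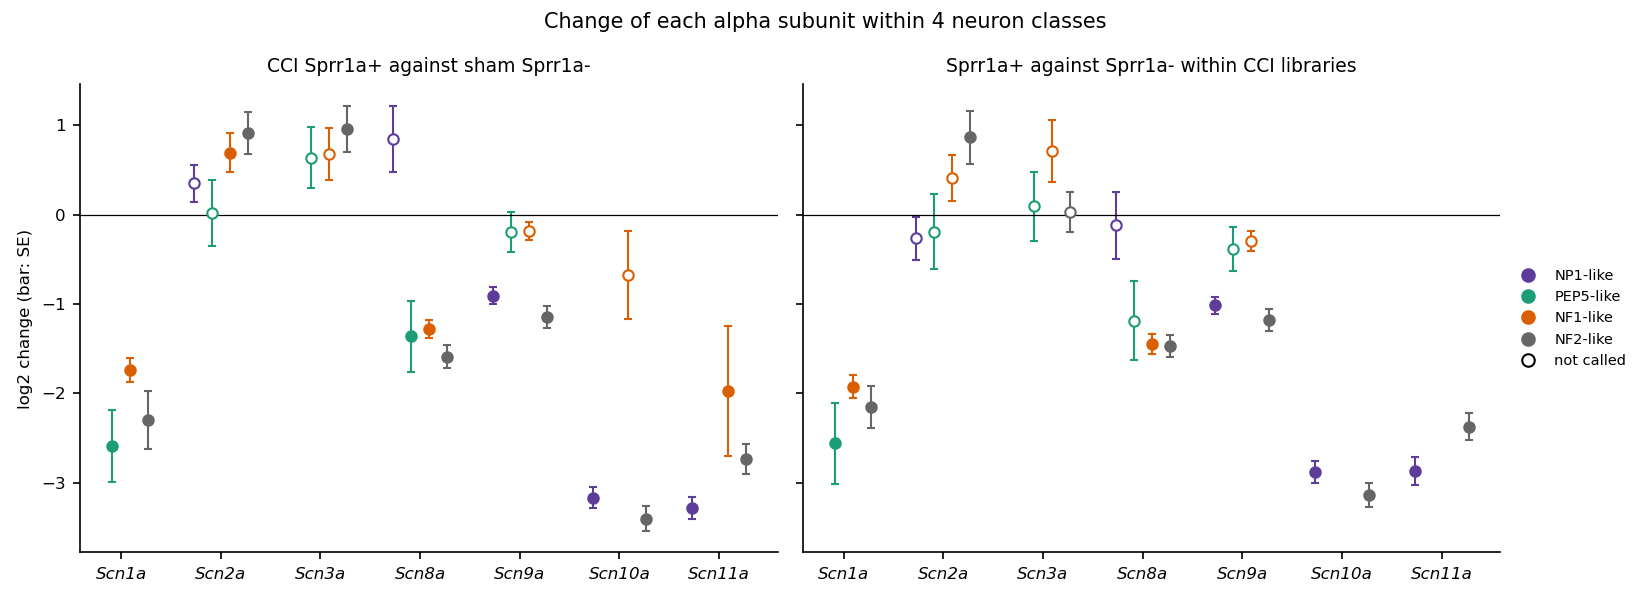
Change (log2, points, with bars of 1 SE) of each alpha subunit in Sprr1a+ neurons of CCI within 4 classes, against Sprr1a- neurons of sham (left) and of the same CCI libraries (right). Filled points were called, and values with an SE above 1 (Scn10a and Scn11a in PEP5-like neurons) are left out. Scn10a falls by 3.17 in NP1-like and 3.40 in NF2-like neurons, and Scn8a is called lower in the NF classes and not in NP1-like neurons.

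The changes of the same member were compared between the NP1-like, NF1-like and NF2-like classes in a single fit with an interaction term. This comparison was added after the data were seen. The fit had no library term, so that sums of different classes from the same library counted as independent, and its p-values rest on that. Of 21 pairs, 6 differed, against 27.6% (NF1-like minus NP1-like), 13.1% (NF2-like minus NF1-like) and 20.2% (NF2-like minus NP1-like) of 13007 genes. The Scn8a change was lower in the NF classes, with a difference of -2.17 ± 0.31 (SE, adjusted p = 1.47e-05) between NF1-like and NP1-like neurons and of -2.45 ± 0.30 (SE, adjusted p = 4.52e-06) between NF2-like and NP1-like neurons. NP1-like neurons, however, held Scn8a only near background, at 3.89 and 2.51 CPM in Sprr1a- neurons of sham. The Scn10a change in NF1-like neurons, also near background, was less negative than in NP1-like neurons by 2.47 ± 0.54 (SE, adjusted p = 0.00136), and the NF2-like change was more negative than the NF1-like change, a difference of -2.72 ± 0.55 (SE, adjusted p = 0.00185). Both Scn10a differences were lost without Male-CCI (1.69, adjusted p = 0.385, and -2.21, adjusted p = 0.331) and with doublets kept (0.0316, adjusted p = 0.978, and -0.21, adjusted p = 0.743). For Scn9a, present in all 3 classes, the NF1-like change was less negative than the NP1-like change by 0.68 ± 0.16 (SE, adjusted p = 0.00274), a call lost without Male-Sham (0.54, adjusted p = 0.109). The NF2-like change of Scn9a was more negative than the NF1-like change, a difference of -0.93 ± 0.16 (SE, adjusted p = 0.000477). With any Sprr1a UMI as the limit the differences between NF2-like and NF1-like neurons were -0.39 for Scn10a and -0.45 for Scn9a and were not called. Both Scn9a differences were larger with doublets kept (1.18 and -1.48), without injury genes in the clustering (1.42 and -1.69) and at resolution 1.2 (1.38 and -1.63). Scn9a in Sprr1a+ neurons of CCI was at 102 and 97.4 CPM in NF1-like, 137 and 115 CPM in NF2-like and 156 and 154 CPM in NP1-like neurons.

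The last comparison asked whether Sprr1a- neurons, those at or below the Sprr1a limit, carried a change. In the CCI libraries most of them, 881 of 1350 and 1123 of 1848, held a Sprr1a UMI below that limit. Over all neurons no member was called (edgeR; 3 had an unadjusted p below 0.05, and DESeq2 called 0), with 4.48% of 16407 genes called. Scn11a was at 183, 175, 142 and 148 CPM, lower in both CCI libraries by less than the 0.5 limit (log2 change -0.33 ± 0.05, SE, adjusted p = 0.00955). Scn3a was at 10.2, 10.5, 12.8 and 14.1 CPM, higher in both CCI libraries and also under the limit (log2 change 0.35 ± 0.07, SE, adjusted p = 0.021). Scn10a was at 228, 219, 202 and 207 CPM (log2 change -0.15 ± 0.05, SE, adjusted p = 0.0705) and Scn9a at 302, 275, 314 and 311 CPM (log2 change 0.09 ± 0.05, SE, adjusted p = 0.278). Neither passed, although no CCI library of Scn10a or Scn9a fell within the sham values. Scn1a (-0.05), Scn2a (0.08) and Scn8a (0.11) were not called. Among neurons with no Sprr1a UMI, Scn3a was called higher (0.74, adjusted p = 0.00094). These were 469 and 725 CCI neurons with medians of 38626 and 31275 UMIs, against 3168 and 5042 sham neurons with 44718 and 31903. CCI neurons with a Sprr1a UMI below the limit were deeper, with medians of 57813 and 46365 UMIs. The part of class make-up in these values over all neurons, and of depth in the last one, was not tested.

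Scn1a could be tested in 7 of the 10 classes, Scn3a in 8 and each other member in 10. In these tests 3 member changes in Sprr1a- neurons were called, all of them increases. This number is near the share of all genes called, 1.09 to 5.31% by class, of which 51.4 to 66.2% were increases. Scn8a rose in NP3-like neurons, from 9.63 and 9.34 CPM in sham to 22.9 and 16.8 CPM in CCI (log2 change 1.03 ± 0.17, SE, adjusted p = 0.00103). SGC-like cells held 13.4 and 7.27 CPM of Scn8a in sham and 11.5 and 7.19 CPM in CCI libraries, so the sham level of NP3-like neurons lay within their range. It was above the 2.15 to 2.95 CPM of PEP3/4-like neurons in sham, and its distance from background was not tested. The call was lost among neurons with no Sprr1a UMI (0.79, adjusted p = 0.156). Scn3a rose in PEP5-like neurons, from 27.2 and 25.8 to 39.8 and 40.7 CPM (log2 change 0.58 ± 0.11, SE, adjusted p = 0.00199). The Scn3a-rich cluster of this class led by Pnoc and Penk held 53 of 296 and 102 of 524 sham cells. In the CCI libraries it held 47 of 168 and 63 of 205 cells, Sprr1a+ cells included. The part of this make-up in the PEP5-like call was not tested. Scn3a also rose in NF2-like neurons, from 7.11 and 6.54 to 11.1 and 14.6 CPM (log2 change 0.96 ± 0.24, SE, adjusted p = 0.0402), a call lost without Male-Sham (1.02, adjusted p = 0.0575), Female-Sham (0.91, adjusted p = 0.0614) or Female-CCI (0.73, adjusted p = 0.238) and with scaling to total UMIs (0.92, adjusted p = 0.0501). DESeq2 also called Scn3a in PEP5-like neurons and gave no adjusted p for the other 2 calls. The share of all genes called was 3.97% in NP1-like, 4.52% in NP2-like, 2.65% in NP3-like, 5.31% in PEP1-like, 4.23% in PEP2-like, 3.5% in PEP3/4-like, 3.46% in PEP5-like, 1.09% in NF1-like, 2.02% in NF2-like and 1.72% in cLTMR-like neurons.

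Below the 0.5 limit, some members passed the adjusted p alone. Scn11a was lower in Sprr1a- neurons of CCI in NP2-like (294 and 332 against 373 and 379.7 CPM, log2 change -0.29 ± 0.07, SE, adjusted p = 0.00709) and PEP3/4-like neurons (-0.26 ± 0.06, adjusted p = 0.0137), and Scn10a in NP2-like neurons (-0.20 ± 0.07, adjusted p = 0.0458). NP2-like neurons included a cluster with 1007 and 1023 CPM of Scn11a that held 43 and 24 sham cells and 1 and 3 CCI cells. In the other NP2-like cluster, Scn11a was at 330.2 and 362 CPM in sham and 291 and 320.2 CPM in CCI libraries, and Scn10a, at 357 and 373 and 329 and 358 CPM, overlapped between the surgeries. Scn8a was higher in PEP1-like (0.46 ± 0.08, adjusted p = 0.00435) and cLTMR-like neurons (0.37 ± 0.10, adjusted p = 0.0329), and Scn3a in cLTMR-like neurons (0.42 ± 0.11, adjusted p = 0.0203). PEP1-like neurons held 1466 and 1448 CPM of summed SGC markers in sham and 471 and 624 CPM in CCI libraries, and their SGC-rich cluster went from 97 and 203 cells to 10 and 31. In the PEP1-like cluster with the most Scn8a, which held 278 of 494 and 470 of 893 sham cells and 130 of 187 and 198 of 307 CCI cells, Scn8a was at 29.3 and 31.4 CPM in sham and 35.7 and 40.1 CPM in CCI libraries. The part of this make-up in the Scn8a value was not tested. By sign, Scn9a was above 0 in 10 of 10 classes, between 0.02 and 0.20, with no call, and Scn8a was above 0 in 8 of 10. Scn10a and Scn11a were each below 0 in 8 of 10 classes. The classes come from the same 4 libraries, so that these counts are no independent repeats.

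**Figure D5:**
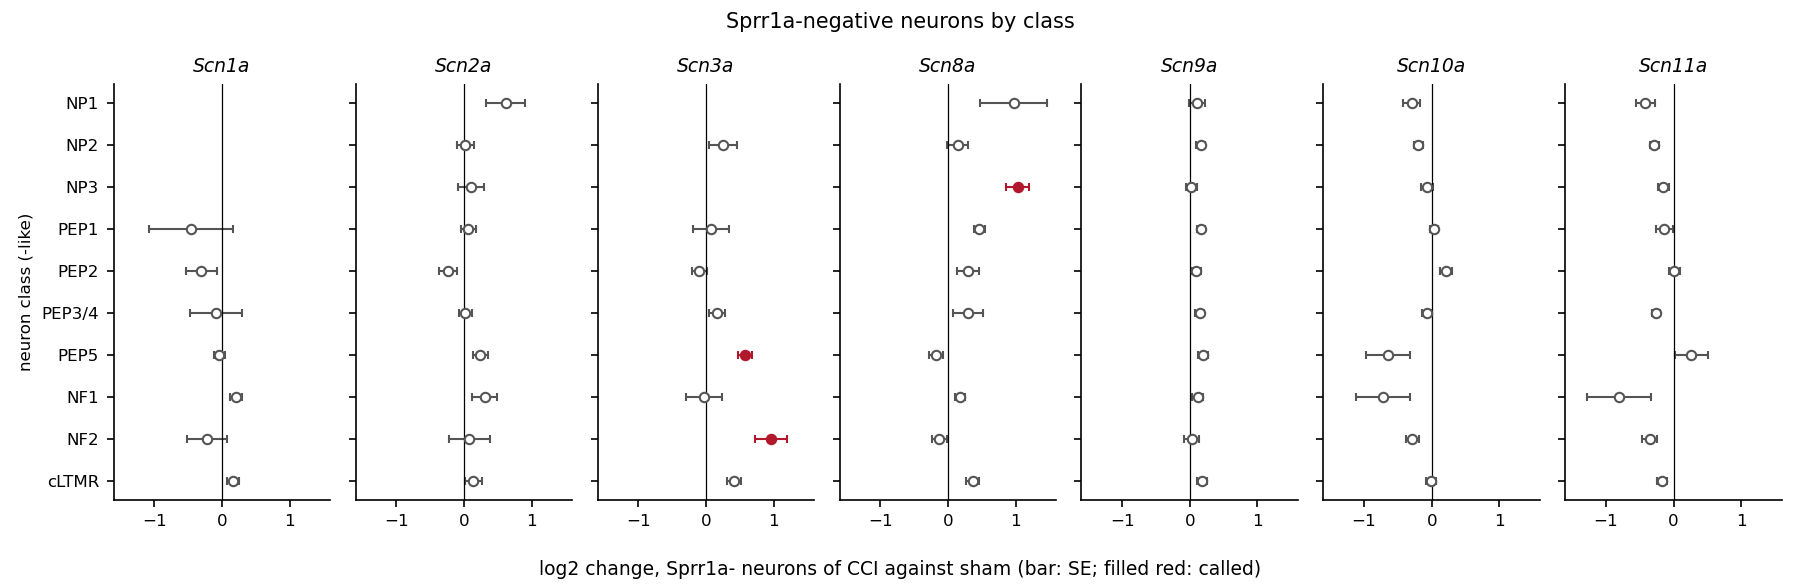
Change (log2, points, with bars of 1 SE) of each alpha subunit between Sprr1a- neurons of the CCI and sham libraries in 10 classes, with called changes in filled red and members too low to test left out. Scn9a lies between 0.02 and 0.20 in every class, and the called points are Scn8a in NP3 (1.03) and Scn3a in PEP5 (0.58) and NF2 (0.96).

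The 28 other genes of the sodium channel complex and its regulation were the remaining alpha subunits, beta subunits, fibroblast growth factor homologous factors, anchors of the axon initial segment and node, trafficking genes, modulators and the repressor Rest. In all neurons of CCI against sham, 4 were higher and 10 lower (background 27.8%), with a median change of -0.29. The largest changes were Fgf11 (1.61 ± 0.08, adjusted p = 1.73e-05), which encodes an intracellular channel-binding factor, Rest (1.42 ± 0.08, adjusted p = 3.20e-05), a transcriptional repressor of neuronal genes, and Scn4b (-1.32 ± 0.23, adjusted p = 0.0109), a beta subunit. Between Sprr1a+ neurons of CCI and Sprr1a- neurons of sham, 5 were higher and 13 lower (background 49.8%), with a median of -0.40.

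Beta subunits are small transmembrane partners of the pore, and Scn4b, Scn2b and Scn3b were lower in that comparison. Scn4b was at 4.44 and 2.73 CPM against 33.97 and 25.2 CPM (log2 change -2.89 ± 0.30, SE, adjusted p = 0.00153), Scn2b changed by -2.15 ± 0.05 (adjusted p = 3.12e-08) and Scn3b by -1.31 ± 0.12 (adjusted p = 0.00021). Scn4a, an alpha subunit best known from skeletal muscle, was low in sham and lower in Sprr1a+ neurons (-3.96 ± 0.61, adjusted p = 0.000809). Tmem233 (-3.58 ± 0.16, adjusted p = 1.33e-05), a NaV1.7 partner, and Fgf13 (-2.80 ± 0.06, adjusted p = 1.23e-08), a channel-binding factor of nociceptors, fell as well. Higher genes included Rest (2.09 ± 0.08, adjusted p = 2.71e-07), Ank3 (1.24 ± 0.06, adjusted p = 5.53e-07), the ankyrin that anchors channels at the initial segment, and Nrcam (0.85 ± 0.07, adjusted p = 1.98e-05), a node adhesion molecule. In Sprr1a- neurons over all neurons, 1 of the 28 was called (background 4.48%), Fgf11 (0.65 ± 0.06, adjusted p = 0.00373). Between Sprr1a+ and Sprr1a- neurons of the CCI libraries, 5 were higher and 13 lower (background 45.5%).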

How the data were processed

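The deposited files held raw UMI counts per gene and cell barcode for 4 libraries, which the authors made with Cell Ranger (version 2.1.1 in the submitters' processing notes) against mm10, with replicate mice pooled before sequencing. No other normalization was applied to the deposited counts. The members, the classes and the lists of related genes were chosen with earlier results of these data known, and the comparisons were fixed from the labels and the study's methods. The exception was the comparison of changes between classes, which was added after the data were seen. Cells with under 1500 genes or over 10% mitochondrial UMIs were removed. Scrublet (scanpy 1.11.5, expected rate 0.1) ranked doublets. Its automatic threshold marked 0 to 121 cells per library, so the highest-scoring cells were removed up to the number per library that the study gives. Cells were integrated and clustered with Seurat 5.3.0 (3000 variable genes without the 7 members, 20 components, resolution 0.8, and 0.4 for the PEP5-like Sprr1a+ comparisons), and clusters were named from at least 3 markers. Classes, but not the CCI-ind-like state, also needed 1 of their markers among the 10 leading genes of a cluster, which left the Calb1-led cluster unnamed although it passed 5 PEP5 markers. Sprr1a+ means a normalized natural log level above 1.

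UMIs were summed per library, class and Sprr1a state, with at least 10 cells in each sum, and tested with the edgeR 4.0.16 quasi-likelihood test (R 4.3.3, filterByExpr, TMM, robust fit). Comparisons within CCI libraries used the library as a block. A call needed a Benjamini-Hochberg adjusted p below 0.05 over all genes tested and an absolute log2 change above 0.5. SE means the change divided by the square root of its F statistic. The test step was also run on simulated counts, drawn independently with the same dispersion for all genes. Such counts cannot show how the step behaves with shared libraries or differing class make-up. Named genes were the 7 members, the called genes of the fixed list of 28 related genes with the largest changes (up to 5 in a comparison, of which some are given) and the 3 genes most like each member in log2 CPM over 10 classes, among genes with a class mean of at least 20 CPM. Scn2b, Scn3b, Rest, Ank3 and Nrcam in the comparison of Sprr1a+ neurons were named after their values were seen. DESeq2 1.42.0, other cell filters, clusterings, Sprr1a limits and scalings, a sex block and each library left out in turn were the alternatives. Counting intervals are Wilson or exact 95% intervals, and a floor is 3 UMIs. Some genes of the list and 1 coding sequence are not reported here.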

Additional observations from a re-analysis of the deposited data

Results flagged for a closer look

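Differences between classes in the change of the same member, from Sprr1a- neurons of sham to Sprr1a+ neurons of CCI, passed the interaction test of edgeR in 6 of 21 pairs, against 27.6% (NF1-like minus NP1-like), 13.1% (NF2-like minus NF1-like) and 20.2% (NF2-like minus NP1-like) of all genes. For Scn8a the difference was -2.17 between NF1-like and NP1-like neurons and -2.45 between NF2-like and NP1-like neurons. For Scn10a it was 2.47 between NF1-like and NP1-like neurons and -2.72 between NF2-like and NF1-like neurons. For Scn9a it was 0.68 between NF1-like and NP1-like neurons and -0.93 between NF2-like and NF1-like neurons. Both Scn10a differences were lost without Male-CCI and with doublets kept, and the Scn9a difference between NF1-like and NP1-like neurons without Male-Sham. Scn8a was near background in NP1-like neurons and Scn10a in NF1-like neurons, and their part in the differences was not tested. The interaction test was added after the data were seen, and it treated different classes of the same library as independent.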

How the results depend on the processing

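Of 2000 recomputed values of single members, 1902 kept their direction and their side of the threshold or were called in neither fit, 44 newly passed, 41 no longer passed and 13 reversed. Most of these values were not called in the main analysis. The main analysis called 44 member changes over all comparisons, and 17 of them no longer passed in at least 1 alternative. These calls had 583 recomputed values, of which 539 stayed the same. The class with the highest sham level of each member was the same in 28 of 28 recomputations with other clusterings or with doublets kept. Classes unchanged at resolution 0.4, such as NF1-like and cLTMR-like neurons, gave the main values again there and were no separate check. Leaving out each library in turn gave 3 calls over all neurons, 5 in Sprr1a+ neurons of CCI against sham, 0 in Sprr1a- neurons over all neurons, 13 to 15 over the 4 classes and 3 to 5 in Sprr1a- neurons by class, the 5 without Male-CCI. A lone library in these fits is assumed to vary like the others. The sex block (pairing by sex, for which the male deviations of sham and CCI correlated at r = 0.328 over 7743 genes, with only 2 pairs) gave the same 3, 5, 0, 16 and 3 calls as the fits without it, and dropping the library block within the CCI libraries gave 5 calls over all neurons and 13 by class (12 with it).

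With any Sprr1a UMI as the limit, the calls were 1 in Sprr1a- neurons (0 in the main analysis), 3 in Sprr1a+ neurons (5), 9 over the 4 classes (16), 3 within the CCI libraries by class (6, without NF2-like neurons) and 1 in Sprr1a- neurons by class (2, without NF2-like neurons). Within the CCI libraries, Scn2a and Scn8a then stood at -0.28 and 0.0236, and Scn1a in PEP5-like neurons at 0.00516 against sham and 0.20 within CCI. The 3 calls in Sprr1a- neurons by class became 1 with DESeq2 (no adjusted p for the other 2), 5 at up to 5% mitochondrial UMIs (without NF1-like neurons) and 5 with the Sprr1a limit at 2. Scn2a within the CCI libraries was -0.15 with scaling to total UMIs. Scn9a in NF1-like neurons turned to 0.43, 0.58 and 0.50 against sham and to 0.32, 0.54 and 0.43 within CCI with doublets kept, without injury genes in the clustering and at resolution 1.2, where NF1-like neurons numbered fewer cells (76 and 85 sham cells at resolution 1.2). Scn3a within PEP5-like neurons was -0.25 with the wider Calb1-led cluster of resolution 0.4 included, and Scn11a in Sprr1a- PEP5-like neurons -0.79 with doublets kept. In NF1-like neurons of sham, Scn1a was at 194 and 178 CPM and Scn8a at 315 and 284 CPM at resolution 1.2 and with doublets kept, and Scn11a in NP2-like neurons was at 364 CPM with doublets kept. The causes of these moves were not tested. Of 66 recomputed differences between classes, 59 still passed. Those at resolution 0.4 gave the values of the main fit again, with the same cell numbers in these classes, and were no separate check. The others were the Scn10a and Scn9a differences already given without 1 library, both Scn10a differences with doublets kept (0.03 and -0.21), and those between NF2-like and NF1-like neurons with any Sprr1a UMI (-0.39 for Scn10a and -0.45 for Scn9a).

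Comparisons within the CCI libraries could not be repeated without a library, and classes with under 10 cells in a sum gave no value: NF1-like and PEP5-like Sprr1a+ neurons at up to 5% mitochondrial UMIs, PEP5-like Sprr1a+ neurons with the members kept in the clustering or the limit at 2, and NF2-like Sprr1a- neurons of CCI with any Sprr1a UMI. Depth limits PEP5-like Sprr1a+ neurons most, where 3 UMIs are 16.1 and 8.88 CPM.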

Other observations

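The unnamed neuron cluster led by Rxfp1 and Calb1 was counted among all neurons but entered no comparison of a class except as an alternative for PEP5-like neurons. In the CCI libraries, over 44 and 34 cells, it held 69.6 and 60.5 CPM of Scn3a, against 47.8 and 47.4 CPM in the sham libraries, and 42.4 and 32.1 CPM of Scn2a. Its Scn10a (6.03 and 8.47 CPM in the sham and 4.002 and 3.70 CPM in the CCI libraries) was near the level of SGC-like cells, whereas its Scn9a stood at 356 and 291 CPM in the sham and 343 and 274 CPM in the CCI libraries.

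At 10000 UMIs per cell, Scn9a and Scn10a were detected together in 64.8 and 63.3% of Sprr1a- neurons of Male-Sham and Female-Sham and in 58.8 and 60.3% of Sprr1a- neurons of Male-CCI and Female-CCI. In Sprr1a+ neurons of Male-CCI and Female-CCI they were detected together in 7.77 and 8.39%, although Scn9a, with or without Scn10a, was detected in 73.0 and 71.9%.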
